A study of Caenorhabditis elegans with 2 samples.

Results

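Peaks of tagged SNU-23 that lie in the gap between a minus-strand coding gene on the left and a plus-strand coding gene on the right, upstream of both, are described here. A peak of the authors' final list was included when its summit was upstream of, and at most 500 bp from, the annotated 5′ ends of a coding gene on each strand. This rule took 553 of the 6675 final peaks (8.28%, exact 95% interval 7.63 to 8.97%), and it used positions and annotation only. Another 1963 final peaks (29.4%) were upstream of a coding gene on 1 strand only, and the remaining 4159 were upstream of none within this distance. The 553 peaks stood between 544 different gene pairs and 1087 different genes.

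The study mapped where SNU-23 associates with chromatin by immunoprecipitation and sequencing (ChIP-seq) in whole hermaphrodite first-stage (L1) larvae of Caenorhabditis elegans. The 2 biological replicates form a single group of the strain OP528, in which the integrated transgene wgIs528 expresses snu-23::TY1::EGFP::3xFLAG from a fosmid insertion and carries unc-119(+) as a marker in an unc-119(tm4063) background. Larvae were hatched into starvation after bleaching and taken 6 hours after this synchronisation, and an antibody against GFP precipitated the sonicated chromatin. All animals carried the transgene and no second group was part of the series, so the comparisons below are between classes of peaks, gaps and genes of the same worms. A whole-larva sample pools all tissues, and a stronger peak in few cells cannot be told apart from a weaker one in many. No file gives read numbers, so the depth is unknown. The signal of a peak is the authors' own value on a linear scale without a stated unit, and the pooled list runs on a higher scale than either replicate. The spread between replicates is shown by values from either replicate's own list, taken to the same length of 6675 peaks.

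Divergent genes are head-to-head neighbours that are transcribed away from each other, so that a short shared stretch of DNA holds the promoters of both. In C. elegans such pairs are common among genes needed in every cell, and the annotated 5′ end of a gene is often the site where a spliced leader is joined by trans-splicing, with transcription starting farther upstream. SNU-23 belongs to the tri-snRNP, a part of the spliceosome, and the spliceosome assembles on nascent RNA. The assay recovers the DNA to which the tagged protein was crosslinked directly or through other molecules.

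Sequences of 8 member peaks are given below, as examples of the recurring words described later and of how much single peaks vary. The peak of ska-3/rps-12 holds none of the words, and trm-1/ints-2 is the only one of the 4 narrowest gaps extracted that holds one. They are the plus strand of WBcel235 (ce11) from RefSeq, read from the minus-strand gene on the left to the plus-strand gene on the right, and contain no annotated exon. Each reaches 75 bp to either side of the summit, except for ctf-4/eef-1G and trm-1/ints-2, where the whole gap is shown. Capitals mark the 8-letter words GCAAACAC, GCGCTCCA, GCGAGACC, AAACGCGC, CGCAAACA, CAAACACC, CGAGACCC and GTACGCAA, read on either strand.

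rpl-15/K11H12.8, chrIV:654852-655002, signal 2300: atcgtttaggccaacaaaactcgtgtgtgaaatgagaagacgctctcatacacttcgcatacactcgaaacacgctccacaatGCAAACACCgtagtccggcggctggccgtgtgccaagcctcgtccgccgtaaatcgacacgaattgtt
rpl-20/Y17G9B.5, chrIV:4749991-4750141, signal 2162: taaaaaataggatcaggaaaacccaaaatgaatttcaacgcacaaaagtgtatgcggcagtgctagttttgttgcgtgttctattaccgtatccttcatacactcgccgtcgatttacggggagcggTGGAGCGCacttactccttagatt
ska-3/rps-12, chrIII:5679054-5679204, signal 1524: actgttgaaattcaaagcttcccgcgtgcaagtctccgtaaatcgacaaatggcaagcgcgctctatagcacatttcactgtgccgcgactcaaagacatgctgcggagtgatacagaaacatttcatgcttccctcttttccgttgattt
mig-5/cct-1, chrII:8185127-8185277, signal 1098: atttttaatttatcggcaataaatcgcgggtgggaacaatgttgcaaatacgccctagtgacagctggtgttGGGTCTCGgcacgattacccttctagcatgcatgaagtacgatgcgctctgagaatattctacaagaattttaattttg
gmps-1/cap-2, chrII:10868892-10869042, signal 975.4: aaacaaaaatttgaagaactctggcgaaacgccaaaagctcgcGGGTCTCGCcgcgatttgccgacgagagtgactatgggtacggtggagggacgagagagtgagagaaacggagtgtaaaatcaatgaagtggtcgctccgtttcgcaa
ctf-4/eef-1G, chrV:10965540-10965718, signal 962.6: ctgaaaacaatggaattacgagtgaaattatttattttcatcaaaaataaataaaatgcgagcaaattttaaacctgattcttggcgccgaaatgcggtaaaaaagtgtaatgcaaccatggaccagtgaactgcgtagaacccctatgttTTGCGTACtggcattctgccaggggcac
wapl-1/htz-1, chrIV:4445839-4445989, signal 886.9: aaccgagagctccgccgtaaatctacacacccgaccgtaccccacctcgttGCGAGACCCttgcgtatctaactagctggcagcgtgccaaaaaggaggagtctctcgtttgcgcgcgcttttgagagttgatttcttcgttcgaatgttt
trm-1/ints-2, chrV:14185613-14185685, signal 261.4: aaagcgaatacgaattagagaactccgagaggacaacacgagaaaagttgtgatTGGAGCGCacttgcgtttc

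Peaks between divergent genes were high in the final list. Their pooled signal had a median of 273 (quartiles 159 and 425, range 72 to 2300), against 186 for peaks upstream of 1 coding gene and 138 for the other peaks. In replicate 1 alone the medians were 125 between divergent genes, 86.7 upstream of 1 gene and 65.2 elsewhere. In replicate 2 they were 145, 98.6 and 75.5 in the same order of classes. The median of the members was thus 1.47 times that of peaks upstream of 1 gene in the pooled list, 1.44 times in replicate 1 and 1.47 times in replicate 2. Their median place in the ranked list was 1712 of 6675, against 2773 upstream of 1 gene and 3824 elsewhere.

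Members made up a falling share of the list from its top to its end. They were 17.5% of the strongest 1000 peaks, with 18.2% and 16.7% in replicates 1 and 2. The share was 13.5% of the next 1000, 8.9% of the 1000 after those and 3.2% of those up to place 6000. Beyond the final list it was 1.6% of candidates from place 7000 to 8000 and 0.1% of the last 1000 of the 30000 pooled candidates. Of the 655 pooled candidates that met the position rule, 553 (84.4%, exact interval 81.4 to 87.1%) were in the final list, against 22.2% of all candidates. For candidates upstream of 1 gene this share was 43.5% (42.0 to 44.9%), and for the others 16.7%. Taking the strongest 6675 candidates of each replicate gave 83.3% and 82.7% between divergent genes, so the replicates differed by far less than the classes did.

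Of the 25 members with the highest signal, 7 had a ribosomal protein gene on at least 1 side, against 36 of all 553 members. A translation factor gene was at 3 of the 25 and 10 of all members, and a chaperone gene at 3 of the 25 and 19 of all. Most of the 25 thus had neither a ribosomal protein nor a translation factor gene. All 25 were among the first 174 candidates of replicate 2 and the first 167 of replicate 1.

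The peak between rpl-15, for a protein of the large ribosomal subunit, and K11H12.8 reached 1081 (replicate 1), 1235.4 (replicate 2) and 2300 in the pooled list, where it ranked 4 of all peaks. The peak between rpl-20 and Y17G9B.5 was next, at 1039.4 and 1130.6 in the replicates and 2162 pooled. Both were well above the third member, the peak between rpl-12 and lin-54, at 750.1 and 829.5 in the replicates. lin-54 encodes the DNA-binding subunit of the DREAM complex, a repressor of cell cycle genes. Its 5′ end was 361 bp from the summit and that of rpl-12 was 32 bp away. Close behind were rps-19/hsr-9 with 722.4 and 835.9 and ska-3/rps-12 with 672.6 and 854.5 in replicates 1 and 2. Here rps-19 and rps-12 encode small subunit proteins, hsr-9 a 53BP1-like protein and ska-3 a protein of the spindle and kinetochore.

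Other strong members joined genes of unlike function. The peak between drr-2, an eIF4H-like gene, and set-16, a histone methyltransferase gene of the MLL family, had 664.9 in replicate 1 and 757.9 in replicate 2, with the summit 164 bp from drr-2 and 182 bp from set-16. That between hsp-110, a chaperone of the Hsp110 family, and rpn-3, a proteasome lid subunit, had 669.8 and 732.9. Between the elongation factor gene eef-1A.1 and rfc-4, for a clamp loader subunit of DNA replication, the replicates gave 565.9 and 690.7. The chaperonin genes cct-8 and cct-1 stood beside Y55F3AR.2 (575.6 and 601.3) and mig-5 (535.3 and 570.8), a Dishevelled homolog of the Wnt pathway. At each of these pairs replicate 2 was above replicate 1, as it was over all members, where the median ratio was 1.09.

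**Figure D1:**
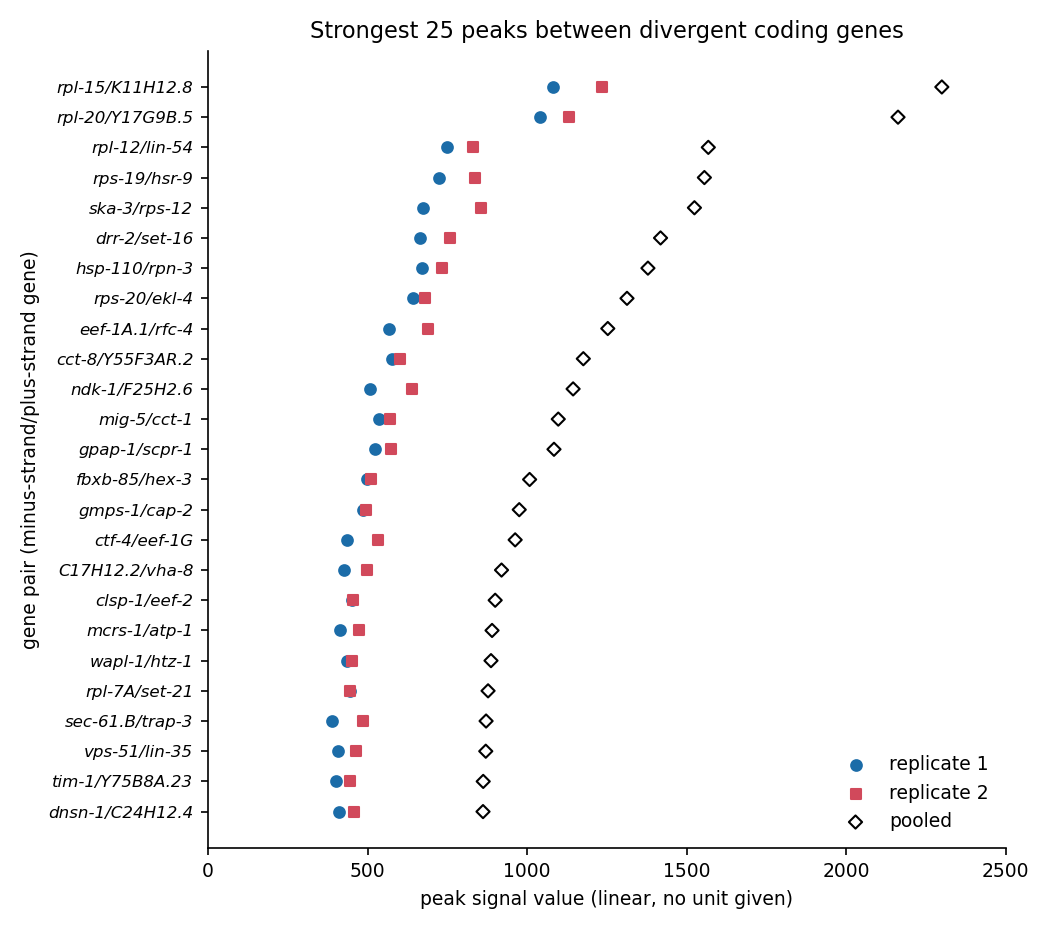
Peak signal (x axis, linear, authors' values without a stated unit) of the 25 members with the highest pooled signal, one gene pair per line, with replicate 1 as circles, replicate 2 as squares and the pooled value as open diamonds. The replicate values of a pair lie close together, rpl-15/K11H12.8 and rpl-20/Y17G9B.5 stand above the rest, and the pooled scale is higher than that of either replicate.

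Further down the 25 were pairs with the V-ATPase gene vha-8 beside C17H12.2 (426.9 and 498.1 in replicates 1 and 2), the ATP synthase gene atp-1 beside mcrs-1 (415.1 and 474.3) and the histone H2A.Z gene htz-1 beside the cohesin release gene wapl-1 (437 and 450.4). The retinoblastoma homolog lin-35 shared its peak with vps-51 (407.6 and 464), and the translocon genes sec-61.B and trap-3 shared theirs (387.4 and 485.3). Elongation factor genes stood beside ctf-4 (eef-1G, 435.1 and 534) and clsp-1, the worm claspin gene (eef-2, 451.3 and 454.4). The pairs ndk-1/F25H2.6, gpap-1/scpr-1, fbxb-85/hex-3, gmps-1/cap-2, rps-20/ekl-4, rpl-7A/set-21, tim-1/Y75B8A.23 and dnsn-1/C24H12.4 complete the list, with pooled signals of 861.9 to 1313.1.

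The 5 lowest members had signals of 72 to 75.1 in the pooled list. The second peak between cec-3 and T09A5.15 had 12.7 in replicate 1 and 65.9 in replicate 2, and the peak between sdhb-1, a subunit of succinate dehydrogenase, and cup-15 had 46.5 and 28.3. Y54E5B.2/let-49 had 31.8 and 38.1, and his-38/his-40 had 33 and 40.7. No candidate of replicate 1 covered the summit between his-35 and C50F4.6, where replicate 2 gave 76.1. The body of another coding gene lies in this last gap, as it does at 4 members in all.

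Over all members the replicates gave nearly the same values and positions. The final list was cut by how well the replicates reproduce each other, so some of this closeness follows from that cut. A candidate of replicate 1 covered 548 of the 553 summits (99.1%), and one of replicate 2 covered 549 (99.3%). The other classes were alike, with 99.5% and 99.4% upstream of 1 gene and 99.3% and 99.4% elsewhere in replicates 1 and 2. The log2 ratio of replicate 2 to replicate 1 had an SD of 0.30 over 544 members, against 0.38 over 1943 peaks upstream of 1 gene and 0.46 over 4106 others, all of which include weaker peaks. The summits of the replicates were a median of 8.5 bp apart at members, 12 bp upstream of 1 gene and 19 bp elsewhere. Across members Spearman's rho of the replicate signals was 0.963, a description over peaks of the same worms. In both replicates 507 members (91.7%) lay between the same pair and among the strongest 6675.

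Seen from the genes, a divergent gap held a summit more often than a gap of another orientation. Of 1718 gaps of at most 1000 bp between neighbouring divergent coding genes, 676 (39.3%, exact interval 37 to 41.7%) held a final summit, against 587 of 5542 tandem gaps (10.6%), 38 of 1790 convergent gaps (2.12%) and 14.4% of all 9050 gaps of this width. The replicates gave 40.6% and 39.9% for divergent gaps. Some gaps longer than 500 bp counted here hold only summits too far from one of the 5′ ends to be members.

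The share was highest at intermediate widths. Divergent gaps over 250 and up to 500 bp held a summit in 283 of 533 cases (53.1%, 48.8 to 57.4%), against 16.2% of tandem and 2.46% of convergent gaps of that width. It was 30.6% for divergent gaps over 100 and up to 250 bp and 13% for those of at most 100 bp. Over 500 and up to 750 bp it was 38.5%, and from there to 1000 bp it was 31.4%. Per length, however, the shortest gaps were the densest, with 2.31 summits per kb up to 100 bp, 1.47 over 250 and up to 500 bp and 0.398 over 750 and up to 1000 bp. A tandem gap lies upstream of the 5′ end of 1 of its genes and a convergent gap of neither. The orientations thus differ in the number of 5′ ends they offer. Whether each 5′ end has a promoter of its own in the gap was not examined.

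**Figure D2:**
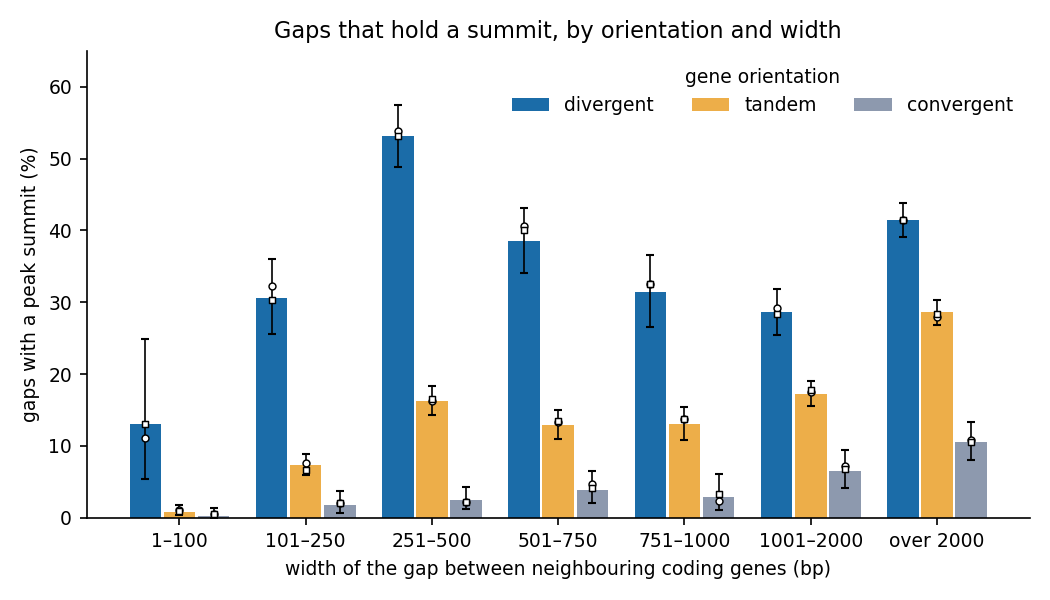
Share of gaps between neighbouring coding genes that hold a peak summit (y axis, percent) by gap width in bp (x axis), for divergent, tandem and convergent gaps. Bars show the final list with exact 95% intervals, circles replicate 1 and squares replicate 2. Divergent gaps are highest in every width class and reach 53.1% between 250 and 500 bp.

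A gene with a divergent partner more often had a summit upstream than one without. Within 500 bp upstream of the 5′ end a final summit lay at 1295 of 3537 coding genes with a divergent coding 5′ end at most 1000 bp away (36.6%, 35 to 38.2%). The share was 10.6% (10.1 to 11%) of the other 16436 coding genes and 15.2% of all. Of the 3537 paired genes, 1087 (30.7%) flanked a member peak, and these are among the 1295. Each member summit counts for both genes of its pair, which raises the share of paired genes by construction.

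The chromosomes differed in how many of their divergent gaps held a summit. The share was 56.0% on III and 51.1% on I, against 36.6% on IV, 31.6% on II and 26.7% on V, and each replicate alone was within 3 percentage points of these values. On the X chromosome 32 of 79 divergent gaps held one (40.5%, 29.6 to 52.1%), near the value for all chromosomes. X gave 25 members, 1.85% of its 1353 final peaks. The median signal of members was 212 on X and between 233 and 299 on the 5 autosomes.

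Few member summits lay close to a 5′ end. The distance to the nearer 5′ end had a median of 130 bp (quartiles 62 and 188), with 129 and 132 bp in the replicates, and that to the farther 5′ end a median of 257 bp. Peaks upstream of 1 gene were a median of 189 bp from it. That is a single distance, while the nearer 5′ end of a member is the closer of both ends by construction. Both 5′ ends were over 100 bp away at 338 members (61.1%), and 33 (5.97%) were within 20 bp of one. The gaps themselves had a median width of 385 bp and ran from 66 to 946 bp.

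The place of the summit in the gap is bounded by the rule, which in wide gaps admits only summits towards the middle. On a scale where 0 is the nearer 5′ end and 0.5 the midpoint, the median position was 0.351 (0.355 and 0.354 in the replicates). It was 0.308 when the limit was 1000 bp and 0.372 when it was 250 bp. Within 50 bp of the midpoint lay 253 members (45.8%), which includes every member in a gap of at most 100 bp. The minus-strand gene was the nearer one at 253 (45.8%, 41.5 to 50%), in replicate 1 at 46.7% and in replicate 2 at 44.9%. The distances to the 5′ ends add up to about the gap width, so they follow it by construction. At widths over 100 and up to 250 bp the medians were 55 bp to the nearer and 139 bp to the farther 5′ end. From there to 500 bp they were 122 and 249 bp, and from 500 to 750 bp they were 210 and 378 bp. The signal had almost no relation to the width of the gap (Spearman's rho 0.09 across 553 members) or to the relative position (0.04).

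**Figure D3:**
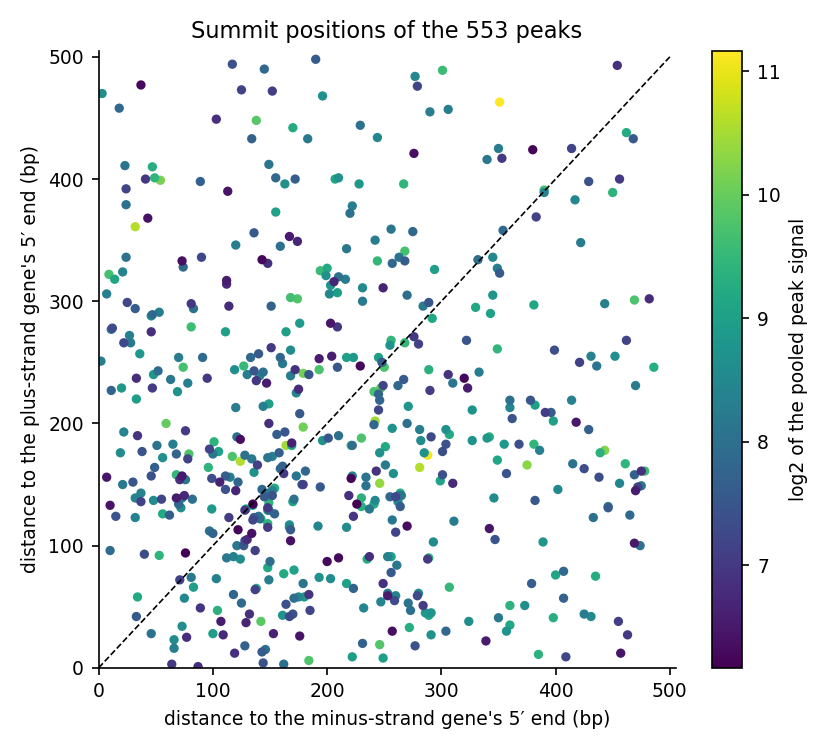
Distance of each of the 553 summits to the 5′ end of the minus-strand gene (x axis, bp) and of the plus-strand gene (y axis, bp), coloured by the log2 of the pooled signal. The points scatter on both sides of the dashed line of equal distance, few lie close to an axis, and strong and weak peaks are mixed throughout.

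The interval called as a peak rarely reached both genes. It had a median width of 261 bp at members and 270 bp upstream of 1 gene. At 267 members (48.3%) it lay wholly inside the gap, and at 58 (10.5%) it covered both 5′ ends. Members just inside the distance rule, with the farther 5′ end at most 50 bp short of the 500 bp limit, had a median signal of 228 (n = 39), and peaks up to 50 bp past it had 261 (n = 43).

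Extreme gaps show the range. In the narrowest, of 66 bp between gei-14 and slc-25A32, the summit was 3 bp from slc-25A32, and the signal was 68.1 (replicate 1) and 57.7 (replicate 2), which put it at place 4034 of the pooled list. The 73 bp gap between trm-1, a tRNA methyltransferase gene, and ints-2, for an Integrator subunit, gave 126.6 and 132.8 in the replicates. Its sequence above is whole, with 46 bp to the left 5′ end and 28 bp to the right one. The 74 bp gap of madf-8 and gsr-1, the 81 bp gap of K07B1.7 and try-5 and the 87 bp gap of pot-1 and ggtb-1 had pooled signals of 187.4, 308 and 116.6. At the other end were snf-6/mtg-1 at 946 bp (116.1), rtfo-1/K09G1.1 at 900 bp (189.2), sqv-3/vha-1 at 899 bp (601.7), uvs-1/xpo-1 at 855 bp (130.4) and T23H2.3/npp-12 at 838 bp (143.3).

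At 9 gene pairs the gap held 2 member summits, and at 4 of these both summits were in a single called interval. At fib-1/mut-15, where fib-1 encodes fibrillarin, the stronger summit was 74 bp from fib-1 (350.3 in replicate 1, 471.9 in replicate 2) and the weaker 47 bp from mut-15 (87.1 and 167.8). At ruvb-1/tofu-1 the summits were 21 bp from ruvb-1 and 84 bp from tofu-1, with pooled signals of 342.2 and 284.6. The pairs sup-35/Y48A6C.4, rpl-1/Y71F9AL.9 and luc-7L3/sftb-6 followed, with summed signals of 901.8, 655.1 and 389.7. In each of these first 5 pairs 1 summit lay nearer to each gene.

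Gene groups of the basic cell machinery varied in how often their paired genes were on a member peak. Against 30.7% of all paired coding genes, member peaks were flanked by 17 of 20 paired genes of the nuclear pore and nuclear transport (85%, 62.1 to 96.8%), 24 of 30 spliceosome genes (80%, 61.4 to 92.3%) and 38 of 48 ribosomal protein genes (79.2%, 65 to 89.5%). The counts were 18 of 23 for oxidative phosphorylation (78.3%), 16 of 21 for the proteasome (76.2%) and 18 of 24 for mitochondrial ribosomal proteins (75%). Chaperones had 20 of 30 (66.7%), translation factors 10 of 17 (58.8%) and cell cycle and replication genes 21 of 37 (56.8%). Aminoacyl-tRNA synthetases had 7 of 11 (63.6%), chromatin genes 10 of 18 (55.6%), the transcription machinery 7 of 13 (53.8%) and membrane traffic 16 of 31 (51.6%, 33.1 to 69.8%). Near the value for all paired genes were DNA repair with 7 of 19 (36.8%, 16.3 to 61.6%) and ubiquitin and autophagy with 9 of 27 (33.3%, 16.5 to 54%). Few genes were paired in the V-ATPase, with 4 of 6, and in mitochondrial import, with 1 of 1. A final summit within 500 bp upstream was also counted over all genes of a list, with or without a divergent partner. It lay at 82.5% of nuclear pore and transport, 81.5% of ribosomal protein and 68.5% of spliceosome genes. These shares include the paired genes, and genes without a partner were not counted apart. The lowest of these groups, chromatin genes, had 33.3%, against 15.2% of all coding genes. The replicates alone gave 39 and 37 ribosomal protein genes, 23 and 22 spliceosome genes and 17 nuclear pore and transport genes each. The lists were chosen with earlier results of these data known, neighbours on a pair count for each other, and no test was run.

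Among large gene families with restricted expression, some were rarely on a member peak. Member peaks were flanked by 4 of 129 paired chemoreceptor genes (3.1%, 0.851 to 7.75%), 1 of 53 C-type lectin genes (1.89%) and 6 of 80 F-box genes (7.5%). For nuclear hormone receptors it was 2 of 18 (11.1%, 1.38 to 34.7%), an interval that holds the 30.7% of all paired genes. The counts in replicates 1 and 2 were 10 and 7 for F-box genes, 1 and 2 for nuclear hormone receptors, 4 each for chemoreceptors and 1 each for C-type lectins. Cuticle collagens, with 5 of 19 (26.3%, 9.15 to 51.2%), and neuropeptides, with 2 of 10 (20%, 2.52 to 55.6%), also had intervals that hold the value of all paired genes. Of homeobox and bHLH genes only 6 had a divergent partner and none flanked a member. Among the exceptions, sri-5 shared its peak with rsr-1, an SR-related splicing gene (282.6 and 355.7 in replicates 1 and 2), and nhr-47 with the DnaJ gene dnj-19 (285.1 and 373.3). Histone genes, mostly paired in clusters, had 17 of 63 (27%). Their copies are nearly identical in sequence, so how reads were shared among them is uncertain.

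**Figure D4:**
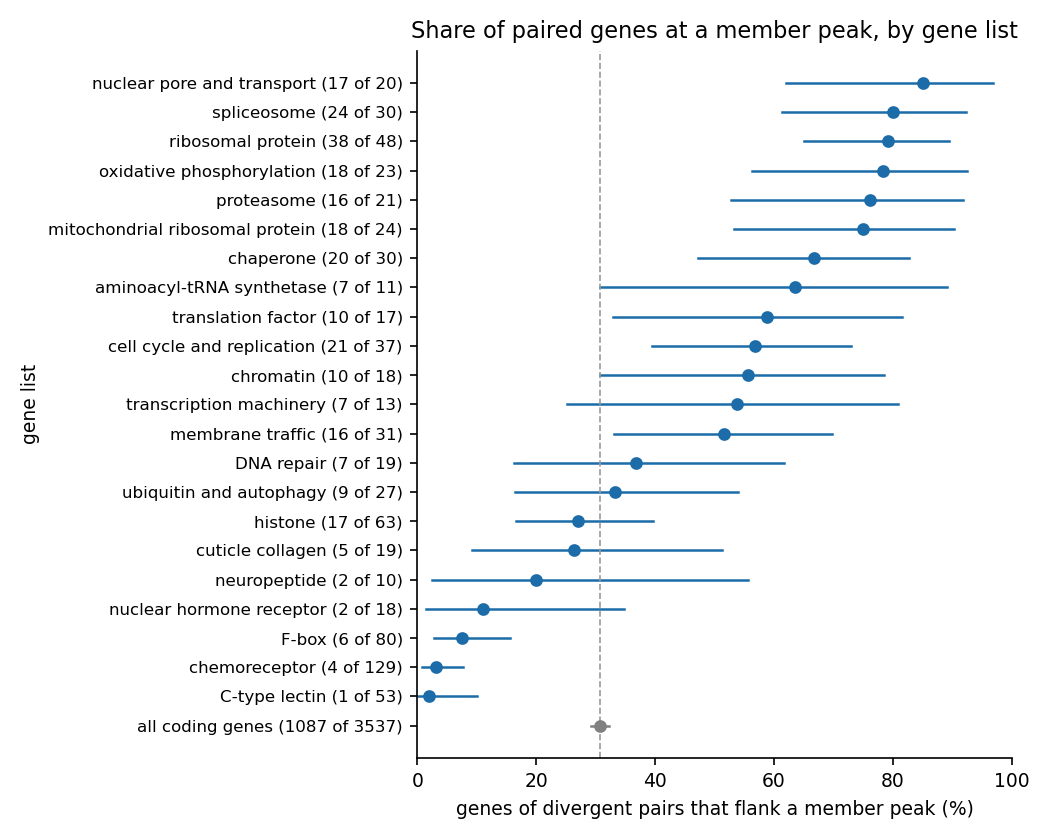
Share of the genes with a divergent partner that flank a member peak (x axis, percent), for each gene list with at least 10 such genes, with counts beside the names. Points show the share and lines its exact 95% interval. The dashed line and the grey point mark the 30.7% of all paired coding genes. Nuclear pore, spliceosome and ribosomal protein genes are on the right, and chemoreceptor and C-type lectin genes on the left.

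Ribosomal protein genes gave the highest median among the lists with at least 10 member peaks, with a median pooled signal of 566.4 over 36 peaks, against 273 over all members. Chaperones followed with 501.4, led by hsp-110/rpn-3, cct-8/Y55F3AR.2 and mig-5/cct-1, then chromatin genes with 461.5 over 11 peaks and oxidative phosphorylation with 348.4, led by mcrs-1/atp-1 and C34E10.10/atp-2 (301.8 and 354.9 in replicates 1 and 2). Spliceosome genes had 250.1, led by clu-1/prp-40 (290.8 and 372.4) and rsp-2/rsp-1 (290 and 329.1), genes of SR proteins. Proteasome genes had 260.6, led by hsp-110/rpn-3 and rpt-2/aps-1 (300.8 and 293.2). Nuclear pore and transport genes, although most often flanked, had 191.7, led by npp-3/top-2 (345.4 and 422.1), where top-2 encodes topoisomerase II. Mitochondrial ribosomal protein genes had 241.7, led by mrps-7/Y57G11C.3 (423.9 and 391.8).

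Summits were often closer to the partner than to the ribosomal protein gene. At 33 members with a ribosomal protein gene on 1 side only, it was the farther of the pair at 24, with a median distance of 288 bp to it and 186 bp to its partner. The replicates gave 24 of 34 and 24 of 32. The chaperone gene was the farther one at 15 of 18 such peaks, and at 14 of 18 and 14 of 17 in the replicates. For mitochondrial ribosomal proteins the count was 8 of 18 peaks in the final list, and for the proteasome 5 of 16. These counts come from few peaks and were not tested.

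Some pairs joined 2 genes of the lists. Both genes were listed at 46 members, and at 17 they came from the same list. Among these were rps-10/rpl-24.1 (302.8 and 395.8 in replicates 1 and 2), rps-14/rpl-36 (346.4 and 335.5) and rpl-39/rps-30 (234.3 and 263.4), each with a small and a large subunit gene. The SR protein genes rsp-2 and rsp-1, the pair snu-13/rsp-7 (131.9 and 166.2), where snu-13 encodes another tri-snRNP protein, and snr-3/rsp-5 (112.9 and 121.7) joined splicing genes. The small heat shock genes hsp-16.2 and hsp-16.41 shared a peak of 141.4 and 177.8. The histone pair his-67/his-68 had 290.8 and 370. Further histone pairs were his-35/his-41, his-31/his-32, his-61/his-62, his-60/his-59, his-4/his-3, his-6/his-5 and his-38/his-40. The remaining same-list pairs were the collagen pair col-117/col-3 and the F-box pair fbxa-76/fbxa-77. How often divergent gaps in general join genes of the same list was not counted. At 239 members at least 1 gene was in a list, so most members, 314 of them, joined genes outside every list.

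Of the paired ribosomal protein genes, 10 had no member peak, but a final summit still lay upstream of some. It lay there for rpl-7, rpl-25.2, rpl-30 and rps-1, and at none of rpl-11.1, rpl-41.1, rpl-43, rps-18, rps-27 and rps-29. Except for rpl-30/pab-1 at 377 bp and rps-18/sec-61.A at 414 bp, these gaps were 566 to 980 bp wide.

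Most members had no other annotated gene in the gap. A noncoding gene lay there at 64 (11.6%, 9.03 to 14.5%), an unclassified ncRNA at 59 of them. At hsp-110/rpn-3 it was an ncRNA, and at eef-1A.1/rfc-4 a microRNA gene. An snRNA gene lay in the gap at 2 members, among them tim-1/Y75B8A.23. The share of all divergent gaps that hold a noncoding gene was not counted. Member genes contained introns in 97.7% of cases, against 95.4% of all paired and 96.6% of all coding genes.

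The base composition around the summits was that of a GC-rich centre between an A-rich arm towards the minus-strand gene and a T-rich arm towards the plus-strand gene. In the 10 bp bin around the summit, G and C together made up 53.2% of bases. In the 10 bp bin around 80 bp to the left, A was 43.2% and T 25.3%, and around 80 bp to the right A was 26.1% and T 43.1%. Read along the strand of each gene, both arms are therefore T-rich. Single peaks departed from these averages: to the right of the summit rpl-15/K11H12.8 has 17 a and 14 t in the printed window, and gmps-1/cap-2 has 23 a and 14 t. In the whole gap of ctf-4/eef-1G, 57 a and 36 t stand left of the summit, against 5 a and 11 t to its right.

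Peaks upstream of 1 gene showed the T-rich arm on the side of that gene. Turned so that their gene is on the right, they had 39.8% T and 23.6% A in the bin 80 bp towards the gene, but 32.4% T and 30.7% A at 80 bp on the other side. Within 50 bp, T minus A was 9.7 percentage points higher to the right of the summit than to the left at members (SD over peaks 20.2, n = 553), against 5.29 points upstream of 1 gene and 1.35 at other peaks. The replicates, which cover mostly the same stretches of sequence, gave 9.94 and 10.1 points for members. The size depends on the window, with 3.43 points within 25 bp and 20.2 points within 100 bp. It was positive at 357 members (64.6%). Runs of TTTTTT lay within 50 bp to the right at 11.4% of members and to the left at 3.25%, and AAAAAA to the right at 5.42% and to the left at 12.1%. At peaks upstream of 1 gene TTTTTT was at 10.2% to the right and 5.25% to the left, and AAAAAA at 2.85% to the right and 6.78% to the left. Over all final peaks TTTTTT was at 7.57% to the right and 4.54% to the left. Midpoints of divergent gaps over 250 and up to 500 bp held such runs more often than members. On either strand TTTTTT was at 46.6% of midpoints with a final summit in the gap and 46% without, against 28.6% of members. To the right and left it was at 14.5% and 12% with a summit, and 17.2% and 12% without. T minus A was 2.95 and 3.25 points higher to the right at midpoints with and without a summit.

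**Figure D5:**
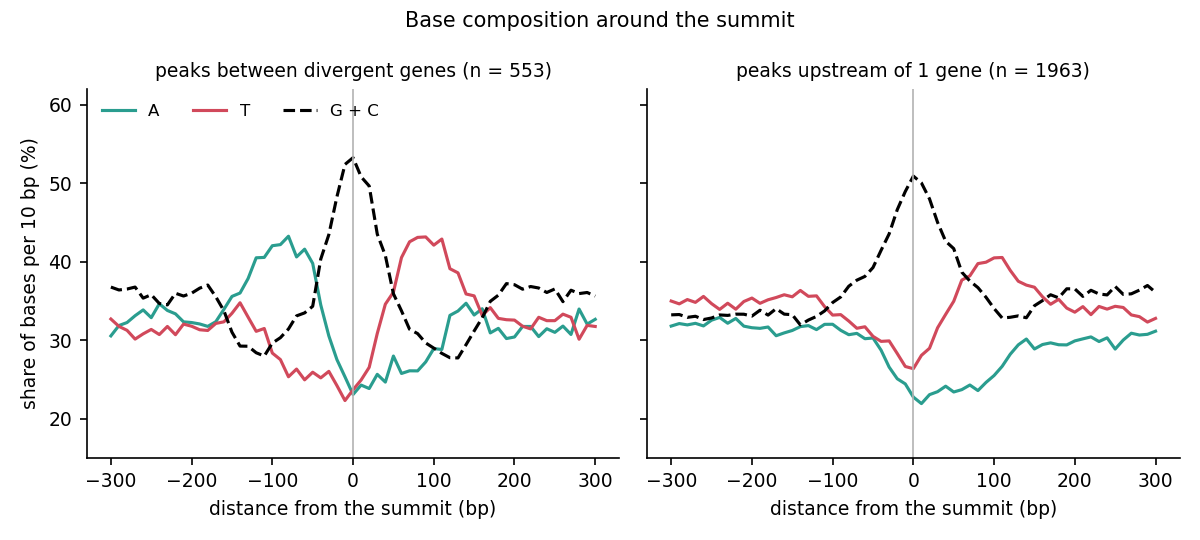
Share of A, T and G plus C (y axis, percent of bases per 10 bp) by distance from the summit (x axis, bp, minus-strand gene to the left), for the 553 peaks between divergent genes on the left and the 1963 peaks upstream of 1 gene, turned to have it on the right, on the right. Members show an A-rich arm on the left and a T-rich arm on the right of a GC-rich centre, and peaks upstream of 1 gene show the T-rich arm only.

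The GC content around the summit was close in the 3 classes of peaks. Within 50 bp of the summit it was 45.8% at members (45.4% and 46.1% in the replicates), 45.8% upstream of 1 gene and 45.4% elsewhere. It did differ along the gap. Members in gaps over 250 and up to 500 bp had 46.0%, while the midpoints of the same class of gaps had 37.2% where the gap held a summit and 33.8% where it held none.

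Short motifs were counted within 50 bp of the summit on both strands. CGCG, which is also part of the word AAACGCGC, was present at 55.5% of members (51.3 to 59.7%), 41.6% of peaks upstream of 1 gene, 24.9% of other peaks and 32.4% of all final peaks. Both replicates, which cover mostly the same stretches of sequence, were close, at 54% and 56.1%. The GC box CNCCGCCC was present at 6.15%, 3.82% and 2.26% in the same order of classes, and at 3.04% of all. GTTCNAA, the B box of RNA polymerase III promoters, was at 7.96%, 5.25% and 3.94%, and at 4.66% of all. Midpoints of divergent gaps over 250 and up to 500 bp had GTTCNAA more often, at 8.48% with a final summit and 12.4% without. CGCG was at 34.6% and 13.2% of these midpoints, and CNCCGCCC at 3.89% and 1.2%. Other motifs were rarer at members than at other final peaks. GAGAGAGA was present at 2.71% of members, 6.01% upstream of 1 gene, 9.09% elsewhere and 7.66% of all. TGATAA, the core of GATA factor sites, was at 3.98% of members and 8.82% of other peaks, and the E box CACGTG at 3.07% and 7.41%. All final peaks had 7.24% for TGATAA and 6.35% for CACGTG. The midpoints with and without a summit had GAGAGAGA at 1.41% and 0.4% and CACGTG at 1.77% and 0.8%, below the members. For TGATAA they had 9.19% and 11.2%, above the members.

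Certain 8-letter words recurred between unrelated gene pairs. The 8 words printed in capitals above were the most frequent with at least 4 G or C within 75 bp of member summits, picked on these members, so their frequency there is a description. The first, GCAAACAC, was in the windows of 75 members (13.6%), 6.98% of peaks upstream of 1 gene, 1.97% of other peaks and 4.4% of all final peaks. It overlaps CGCAAACA and CAAACACC. GCGCTCCA was in 9.22% of members, 4.84% upstream of 1 gene, 0.866% elsewhere and 2.73% of all. GCGAGACC, which overlaps CGAGACCC, was in 8.86%, 3.16%, 0.673% and 2.08% in the same order. AAACGCGC was in 8.68%, 5.91%, 1.2% and 3.21%, and GTACGCAA in 7.59%, 3.46%, 1.06% and 2.31%.

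At least 1 of the 8 words was at 231 members (41.8%, 37.6 to 46.0%), against 22.7% upstream of 1 gene, 6.11% elsewhere and 13.9% of all final peaks. This interval leaves out that the words were picked on the same members. The replicates had 41.3% and 43.0%. As 507 members lay between the same pair in both replicates, these are mostly the same stretches of sequence, and their closeness adds no support. Among divergent gaps over 250 and up to 500 bp, a window of the same length at the midpoint held one in 28.6% of gaps with a summit and 5.2% (2.8 to 8.73%) of gaps without. Gaps with a summit are largely those of the members on which the words were picked, so this contrast is a description too. In the genome GCAAACAC occurred 44.6 times per Mb, against 934 per Mb in the member windows. Of the 10 highest members whose windows were free of annotated exons and could be shown, 7 held a word, among them rpl-15/K11H12.8, C17H12.2/vha-8 and wapl-1/htz-1, while ska-3/rps-12, drr-2/set-16 and cct-8/Y55F3AR.2 held none. Of the 418 matches at members, 54.3% were in sequence soft-masked as repeats in the RefSeq file, against 43.8% of matches upstream of 1 gene, 34.3% elsewhere and 52.2% in the genome. Soft-masked sequence made up 34.9% of the bases in member windows, against 23.5% upstream of 1 gene, 16.9% elsewhere and 35.7% of the genome, and its part in the word counts was not tested.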

How the data were processed

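The files are peak lists that the authors deposited for build ce11: 30000 candidates for each of the 2 replicates, 30000 candidates of both pooled, and a final list, cut by the irreproducible discovery rate, of 6675 peaks. The deposited signal of a peak and its summit offset are the authors' values. Aligner, peak caller and their versions were not given in the sources used here. The ce10 lists, reads and control data were not used here. Depth is unknown. Exact binomial (Clopper-Pearson) 95% intervals cover counting error only and treat neighbouring genes as independent.

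Summits were set against the 19973 coding genes of Ensembl release 115 (WBcel235, the same assembly as ce11) on 6 chromosomes, with 1-based positions and RefSeq sequence. A gap is the stretch between neighbouring coding gene bodies. A replicate's list of the same length is its strongest 6675 candidates. Motifs were read within 50 bp and words within 75 bp of the summit. Python 3.11.15, numpy 2.4.6, scipy 1.17.1 and matplotlib 3.10.9 were used, and the position rule was tested on simulated data. No test of a difference was run.

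The members, the 25 gene lists, defined by gene symbol, and the 14 motifs were chosen with earlier results of these data known. Named pairs are the 25 highest and 5 lowest members by signal, up to 3 leaders of a list, the 5 narrowest and 5 widest gaps, up to 5 pairs with 2 members and pairs within a list. Ribosomal protein genes without a member, and the exceptions in receptor families, were named after their values were seen. Alternatives were each replicate alone, the stronger 3337 peaks, windows of 250 and 1000 bp, transcript 5′ ends, neighbouring genes only and sequence windows of 25 and 100 bp. Leaving out gaps with a noncoding gene, and the words, were added after seeing the data.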

Additional observations from a re-analysis of the deposited data

How the results depend on the processing

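No paired analysis was possible because the series has a single group of 2 replicates. Of 59 alternative values, 18 stayed within the spread of the replicates or, for the number of members, within 1.5 times, and 41 moved further. Only the T minus A difference could have changed sign, and it kept its sign in every alternative. The number of members was 254 with a 250 bp window. The share of divergent gaps with a summit was 40.6% and 39.9% in the single replicates, 29.6% for the stronger 3337 peaks, 42.8% with the 250 bp window (gaps up to 500 bp) and 36.0% with the 1000 bp window (gaps up to 2000 bp). The ratio of median signals, members over peaks upstream of 1 gene, was 1.44 and 1.47 in the replicates, 1.14 for the stronger 3337 peaks, which removes the weak peaks of both classes, 1.32 and 1.44 with 250 and 1000 bp, 1.54 with transcript 5′ ends and 1.41 without gaps that hold a noncoding gene. GC content was 46.8% for the stronger peaks, 45.3% with the 250 bp window, and 50.7% and 38.8% in sequence windows of 25 and 100 bp. The T minus A difference was 9.94 and 10.1 points in the replicates, 9.11 for the stronger peaks, 11.7 and 8.68 with 250 and 1000 bp, 9.9 with transcript 5′ ends, and 3.43 and 20.2 in sequence windows of 25 and 100 bp. The cause of these shifts was not tested. Annotated 5′ ends stand in for start sites, and with 2 replicates the spread is itself poorly known.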
